A study of Mus musculus with 3 samples.

Results

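The genes described here are those of cholesterol synthesis, its sterol sensor, and cholesterol uptake and trafficking, followed in cultured mouse hepatocytes given the bile acid tauroursodeoxycholic acid (TUDCA) or the solvent DMSO. The list holds 27 genes chosen by symbol: 19 enzymes of the route from acetyl-CoA to sterols, 4 regulators and 4 genes of uptake and trafficking. Of these, 26 matched 1 of the 37620 Ensembl identifiers of the tables, and Hmgcs1 was not analysed here. Hepatocytes were primary cells of C57BL/6 mice, freed from the liver with collagenase and grown on gelatin in medium with serum and insulin, and all groups shared these conditions. There was 1 library from cells given DMSO, with no time stated, and there were 2 libraries from cells given TUDCA, labelled 100 mM for 24 h, a dose that was not checked against another source. Time in culture may thus differ between the groups, and such a difference and that of TUDCA cannot be told apart. The series text speaks of 2 independent experiments without saying which library came from which, so these libraries may be technical repeats and their spread may be too small.

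Cholesterol is built from acetyl-CoA through mevalonate, activated isoprenoid units, squalene and lanosterol, in a series of enzymes that sit mostly on the endoplasmic reticulum (ER). The transcription factor SREBP-2, encoded by Srebf2, switches these enzymes on. It is held in the ER by the escort protein SCAP and the INSIG proteins when sterols are plentiful, and travels with SCAP to the Golgi for cleavage when sterols are scarce. Liver is a main site of this pathway and also turns cholesterol into bile acids. Insig1 is itself a target of SREBP, whereas the liver transcript of Insig2 is known to be lowered by insulin and has been described as a target of the bile acid receptor FXR. Neither link was tested here.

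Of the 26 measured genes, Insig2 alone was called different between TUDCA and DMSO. It was at 102.3 RPKM (reads per kilobase of gene and per sequencing depth of the library, as deposited by the authors) in DMSO, 206.5 RPKM in TUDCA replicate 1 and 207.9 RPKM in TUDCA replicate 2. Both TUDCA libraries lay close together and well above DMSO. The TUDCA mean of 207.2 ± 0.96 RPKM (SD, n = 2) was 2.03 times the DMSO value. The log2 fold change, on the log2(RPKM + 1) scale used throughout, was 1.01 ± 0.21 (SE, 95% interval 0.61 to 1.41, limma adjusted p = 9.3e-05). In the same fit across 11300 genes, 2.65% were called in either direction, 1.77% higher and 0.876% lower. A count of 1 in 26 is near that background. In order of log2 fold change, Insig2 stood at place 127 of the 11300 genes tested.

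The Insig2 call rested on a spread shared over genes. At a filter of 1 RPKM limma gave each gene the common spread at its expression level, and the DMSO value, without a replicate, was taken to vary as the TUDCA values do. With genes from 0.3 RPKM upwards the log2 fold change of Insig2 was the same but the adjusted p was 0.102, and without a filter it was 0.502. Because the cells were measured in bulk, a change in RNA per cell and a change in the share of cells that make it cannot be told apart.

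**Figure D1:**
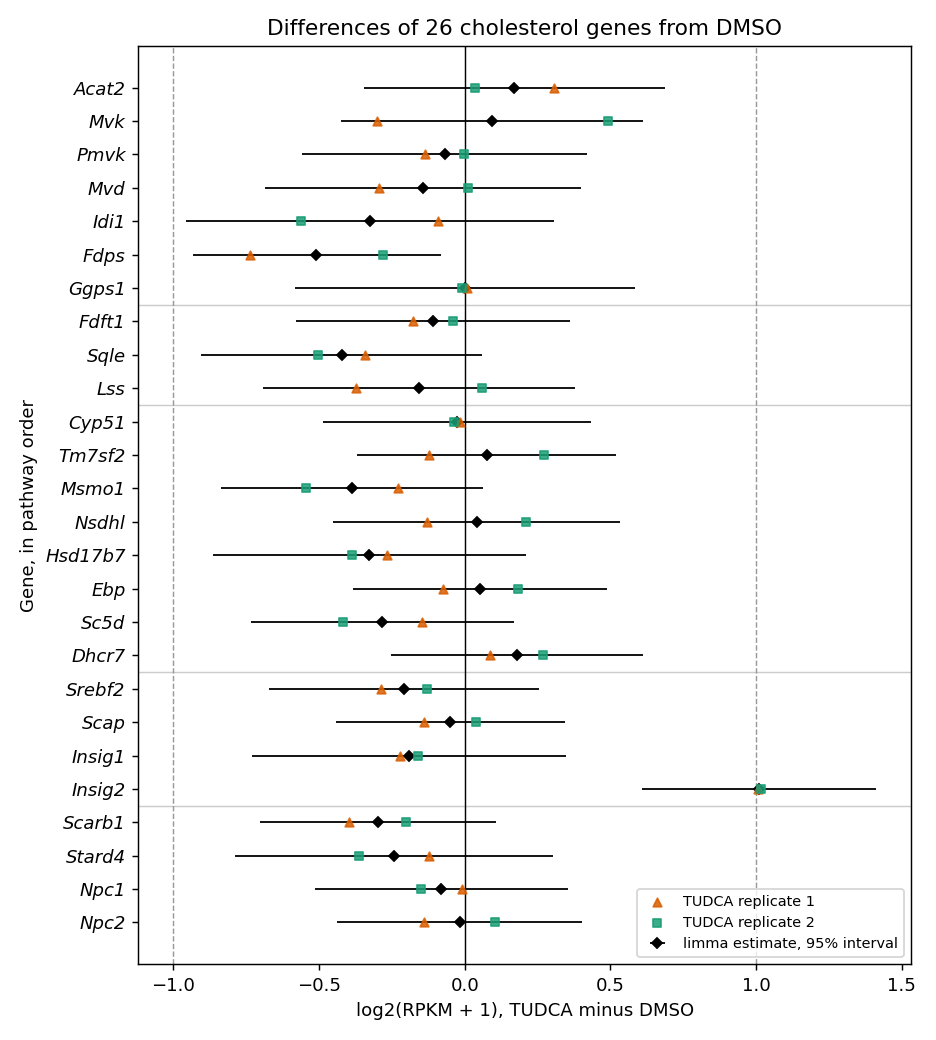
Differences from DMSO on the log2(RPKM + 1) scale for 26 cholesterol genes in pathway order. Triangles and squares are TUDCA replicates 1 and 2, diamonds with bars are the limma estimate with its 95% interval, and dashed lines mark a 2-fold difference; Insig2 lies at 1.01 and every other interval stays within 2-fold.

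The promoters of Insig2 and its paralog Insig1 are shown because 1 of this pair was called and the other was not, and that of the enzyme gene Mvd is shown beside them. Sequences are from RefSeq (GRCm38.p6), read 5′ to 3′ on the strand of the gene, upstream of the transcription start and outside annotated exons. Capitals mark CCAAT boxes (CCAAT or ATTGG, bound by NF-Y) and GC boxes (GGGCGG or CCGCCC, bound by SP1). Both factors are known partners of SREBP at sterol-regulated promoters.
Insig2, most distal start, chr1:121332590-121332839, minus strand: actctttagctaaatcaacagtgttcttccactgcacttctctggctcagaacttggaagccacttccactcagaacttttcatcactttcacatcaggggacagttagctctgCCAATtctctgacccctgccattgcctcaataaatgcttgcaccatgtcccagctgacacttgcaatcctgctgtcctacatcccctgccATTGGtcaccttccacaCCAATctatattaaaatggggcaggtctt
Insig1, chr5:28071162-28071362, plus strand: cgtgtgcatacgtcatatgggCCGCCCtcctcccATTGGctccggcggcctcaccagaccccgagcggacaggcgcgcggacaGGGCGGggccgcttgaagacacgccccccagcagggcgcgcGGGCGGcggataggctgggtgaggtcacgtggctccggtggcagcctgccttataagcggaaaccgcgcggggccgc
Mvd, chr8:122443423-122443672, minus strand: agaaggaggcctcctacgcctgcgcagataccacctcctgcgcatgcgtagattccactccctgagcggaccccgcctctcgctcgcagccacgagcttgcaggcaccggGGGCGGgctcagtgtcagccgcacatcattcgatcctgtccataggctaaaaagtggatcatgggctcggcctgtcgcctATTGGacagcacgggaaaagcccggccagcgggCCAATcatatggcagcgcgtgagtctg

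The distal Insig2 stretch held 3 CCAAT boxes and no GC box, that of Insig1 held 1 CCAAT box and 3 GC boxes, and that of Mvd held 2 CCAAT boxes and 1 GC box. RefSeq gives Insig2 3 start windows. The CCAAT boxes were in 1 of them, the distal one. GC boxes were in 2 of the 3, counted over whole windows with bases after the start, so Insig2 does not lack GC boxes. Which start gave its reads is not known. Of 20 measured members with a window of 300 bases in the RefSeq table, 18 held a CCAAT box on either strand, 90% against 42.7% of the 8690 tested genes with a window. GC boxes were in 18 of the 20 (90%) against 69.5% of tested genes. The sterol regulatory element, searched as TCACNCCAC on both strands, was in none of the 20, and in 1.46% of tested genes. With a share this low, none among 20 is near the background, and elements with other letters were not searched. The inverted repeat of AGGTCA with 1 base between its arms, a consensus for FXR, was in none of their windows, and in 3 of all 32851 windows. Counts are per gene over all its windows, of which the 20 members had 26. By window, the CCAAT box was in 69.2% of theirs and in 37.4% of all windows, which include those of genes not tested here. A match is a description of the letters and not a bound site, and the lack of a match does not show that a site is absent. Windows of Fdps, Fdft1, Sqle, Scarb1, Stard4 and Npc1 were not matched by symbol.

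Among the regulators, Srebf2, Scap and Insig1 were not called, and the gap between Insig1 and Insig2 widened. Insig1 (ENSMUSG00000045294), the SREBP-induced member of the INSIG pair, was at 11.2 RPKM in DMSO and at 9.49 and 9.93 RPKM in TUDCA replicates 1 and 2. Both TUDCA libraries lay slightly under DMSO (log2 fold change -0.19 ± 0.28, 95% interval -0.73 to 0.35, limma adjusted p = 0.919). The ratio of Insig2 (ENSMUSG00000003721) to Insig1 within a library, which no scaling of the library can change, was 9.12 in DMSO, 21.8 in TUDCA replicate 1 and 20.9 in TUDCA replicate 2 by RPKM. The 95% intervals of the log2 fold changes of Insig1 and Insig2 did not overlap; the difference between them was not tested.

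The size of the gap between the INSIG genes depended on the gene length taken. The RPKM values gave whole reads for every gene above 0, so the smallest length behind each value could be recovered with the smallest reads. A multiple of these is possible for any gene. The reads, and ratios between genes in reads or on the longest transcript, would change with it. For Insig2 the smallest such length was 791 nt, and for Insig1 it was 2647 nt, while the longest GENCODE M21 transcript of each is 2697 nt. In the smallest reads, Insig2 had 872 in DMSO and 1594 and 1739 in the TUDCA libraries, and Insig1 had 320, 245 and 278. Insig2 therefore exceeded Insig1 by 2.73 times in DMSO, and by 6.51 and 6.26 times with TUDCA, when both were set on their longest transcript. Differences between TUDCA and DMSO for 1 gene do not depend on its length, apart from the pseudocount.

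**Figure D2:**
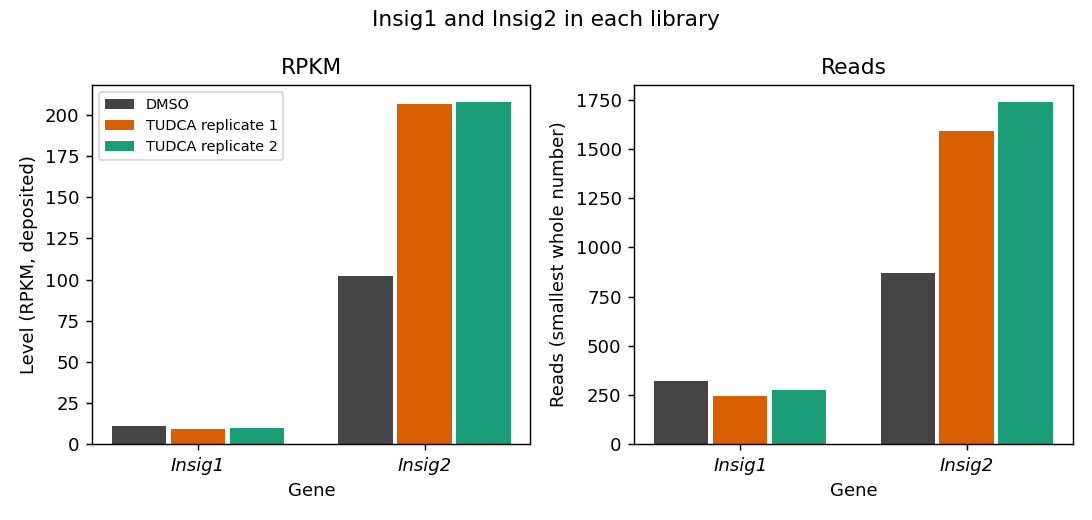
Insig1 and Insig2 in the DMSO library and both TUDCA libraries, as deposited RPKM (left) and as the smallest whole reads behind them (right); each bar is 1 library. Insig2 goes from 102.3 to 206.5 and 207.9 RPKM, and its excess over Insig1 is smaller in reads than in RPKM.

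Srebf2 (ENSMUSG00000022463) itself, which encodes SREBP-2, was at 36.3 RPKM in DMSO and at 29.5 and 33.1 RPKM in TUDCA replicates 1 and 2. The difference did not pass the test (log2 fold change -0.21 ± 0.24, limma adjusted p = 0.879). Scap (ENSMUSG00000032485), the sterol-sensing escort, was the most abundant of the 26 by RPKM, with 260.4 RPKM in DMSO against 236.5 and 267.6 RPKM with TUDCA. The DMSO value fell between those of the TUDCA libraries. The ratio of Insig2 to Scap by RPKM was 0.393 in DMSO and 0.873 and 0.777 in the TUDCA libraries. The smallest length behind the Scap values was 828 nt, against a longest transcript of 4227 nt, the widest such gap among the 26 genes (5.11 times). On that transcript, with the smallest reads, Scap came to 51.0 RPKM in DMSO and ranked the third among the members. With both genes on their longest transcript the ratio of Insig2 to Scap was 0.588 in DMSO and 1.31 and 1.16 with TUDCA, so which of them stood higher with TUDCA depended on the length used.

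None of the 7 measured genes of the mevalonate and isoprenoid steps was called. Fdps, which makes farnesyl diphosphate from the isoprenoid units, had the largest estimate of difference among the enzymes on the log2(RPKM + 1) scale. By the ratio of the TUDCA mean to DMSO it came after Idi1, at 0.709 against 0.665. Idi1 was also past Fdps with a pseudocount of 0.1 (-0.61 against -0.51) and with limma voom on reads (-0.67 against -0.51). With quantile normalization Idi1 and Sqle (-0.45 each) were past Fdps (-0.44). Fdps was at 92.4 RPKM in DMSO, 55.0 RPKM in TUDCA replicate 1 and 76.0 RPKM in TUDCA replicate 2. Both TUDCA libraries were below DMSO, but they differed by 0.46 from each other on the log2 scale. The log2 fold change was -0.51 ± 0.22 (95% interval -0.93 to -0.08), with an unadjusted limma p of 0.0192 and an adjusted p of 0.282.

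Mvk, mevalonate kinase, was at 13.2 RPKM in DMSO and at 10.5 and 18.9 RPKM in TUDCA replicates 1 and 2. Its TUDCA libraries stood on either side of DMSO and differed by 0.79 on the log2 scale, the widest gap within TUDCA among the members. Idi1, the isomerase of isopentenyl diphosphate, was the lowest member at 1.34 RPKM in DMSO against 1.20 and 0.585 RPKM with TUDCA. It rested on 21, 17 and 9 reads, so a change in Idi1 short of a large one was not detectable at this depth. Fitted as reads with limma voom, its log2 difference was -0.67 with a 95% interval of -1.68 to 0.35.

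The other 4 genes of these steps lay close to DMSO. Acat2, the cytosolic thiolase that joins acetyl-CoA units, was at 13.0 RPKM in DMSO and 14.9 ± 2.1 RPKM with TUDCA (SD, n = 2). Pmvk and Mvd, the kinase and decarboxylase that follow Mvk, were at 22.3 and 10.4 RPKM in DMSO and at 21.2 ± 1.4 and 9.42 ± 1.56 RPKM with TUDCA. Ggps1, which extends the chain to geranylgeranyl diphosphate, was at 4.51 RPKM in DMSO and 4.52 ± 0.05 RPKM with TUDCA, nearly the same in all 3 libraries.

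At the squalene and lanosterol steps, all 3 enzymes had negative estimates and none was called. Sqle, squalene monooxygenase, a rate-limiting step of the sterol branch, was at 28.9 RPKM in DMSO and at 22.6 and 20.1 RPKM in TUDCA replicates 1 and 2. Both TUDCA libraries were lower than DMSO, and the difference between them was smaller than their distance from DMSO. The test was not passed (log2 fold change -0.42 ± 0.25, 95% interval -0.91 to 0.06, limma adjusted p = 0.587). Fdft1, squalene synthase, was at 31.1 RPKM in DMSO and 28.8 ± 2.0 RPKM with TUDCA. Lss, which closes the ring to lanosterol, was at 11.6 RPKM in DMSO against 8.70 and 12.1 RPKM with TUDCA, on either side of DMSO.

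**Figure D3:**
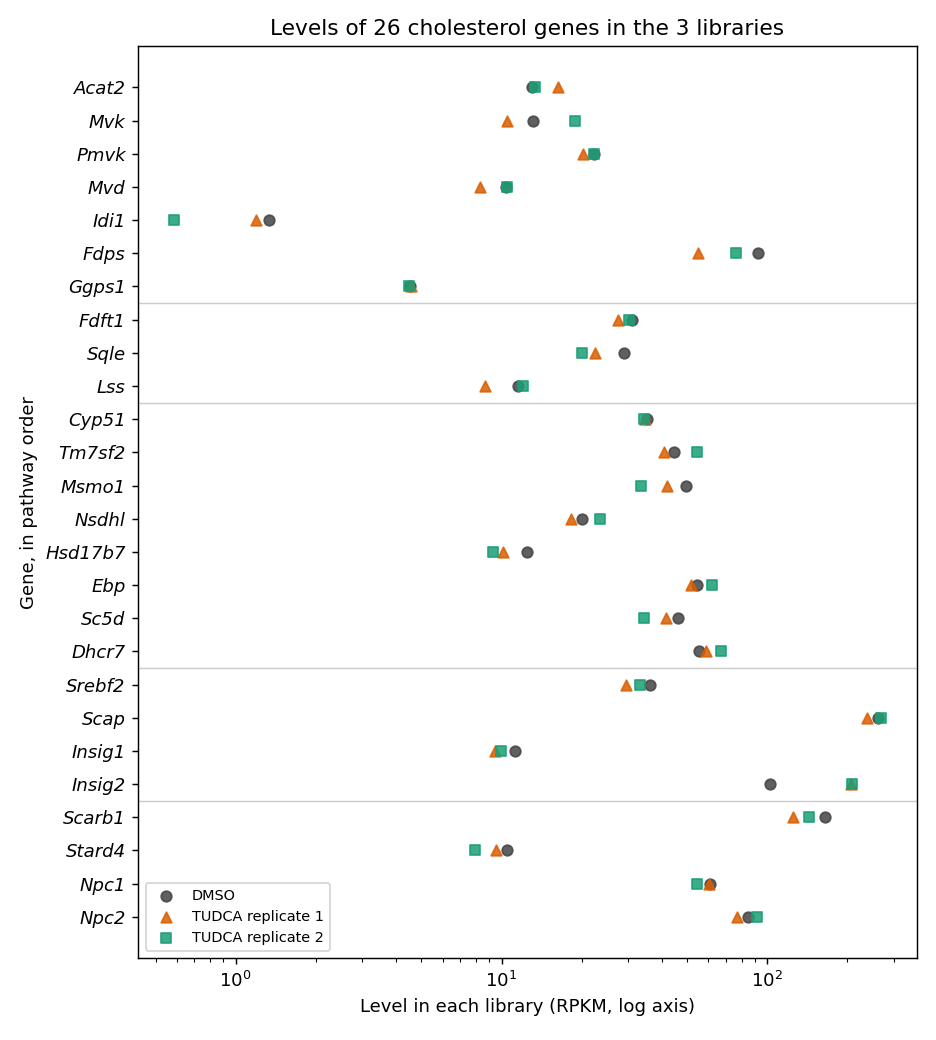
Level of each of 26 cholesterol genes in the DMSO library (circles) and both TUDCA libraries (triangles and squares), as RPKM on a log axis, in pathway order. Insig2 is the gene whose TUDCA points stand clearly to the right of DMSO, at 206.5 and 207.9 RPKM against 102.3 RPKM.

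After lanosterol, 8 enzymes were measured and none was called. Msmo1, the C4-methyl oxidase, was at 49.5 RPKM in DMSO and at 42.1 and 33.6 RPKM in TUDCA replicates 1 and 2. Sc5d, the C5-desaturase, was at 46.1 RPKM in DMSO against 41.5 and 34.3 RPKM with TUDCA. Hsd17b7, the ketoreductase that acts with Msmo1 and Nsdhl in C4 demethylation, was at 12.4 RPKM in DMSO against 10.2 and 9.28 RPKM with TUDCA. For these 3 genes both TUDCA libraries were under DMSO and TUDCA replicate 2 was the lower one. Their log2 fold changes were -0.39 ± 0.23, -0.28 ± 0.23 and -0.33 ± 0.27, with limma adjusted p-values of 0.602, 0.778 and 0.787.

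Dhcr7, the last reductase of the route to cholesterol, was at 55.4 RPKM in DMSO against 58.9 and 67.0 RPKM with TUDCA, above DMSO in both libraries (log2 fold change 0.18 ± 0.22, limma adjusted p = 0.887). Cyp51, the lanosterol demethylase, was at 35.2 RPKM in DMSO and 34.6 ± 0.3 RPKM with TUDCA, and its values were almost equal in the 3 libraries. Tm7sf2 (C14 sterol reductase), Nsdhl (C4 decarboxylase) and Ebp (sterol isomerase) were at 44.7, 20.1 and 54.2 RPKM in DMSO. With TUDCA they were at 47.6 ± 9.4, 20.9 ± 3.6 and 56.5 ± 7.2 RPKM, and DMSO fell between the TUDCA libraries for each of them.

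The 4 genes of uptake and trafficking had negative estimates without a call. Scarb1, the receptor SR-BI that takes up cholesteryl esters from HDL, was at 164.3 RPKM in DMSO and at 124.6 and 142.9 RPKM in TUDCA replicates 1 and 2. Both TUDCA values were below DMSO (log2 fold change -0.30 ± 0.21, 95% interval -0.70 to 0.11, limma adjusted p = 0.698). Stard4, a soluble sterol carrier that SREBP-2 induces, was at 10.5 RPKM in DMSO and in TUDCA replicates 1 and 2 at 9.58 and 7.95 RPKM, an estimate of -0.24 ± 0.28 (limma adjusted p = 0.880). Npc1 and Npc2, which together move cholesterol out of lysosomes, were at 60.6 and 84.8 RPKM in DMSO and at 57.4 ± 4.0 and 84.1 ± 10.1 RPKM with TUDCA.

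Read as a group, the 26 genes had a median log2 fold change of -0.09, against 0.04 over all 11300 genes tested. The median was -0.14 in TUDCA replicate 1 and -0.02 in TUDCA replicate 2, so it was lower in the first library. For 14 of the 26 genes both TUDCA libraries were below DMSO, and 30.4% of all genes tested showed this. For 3 genes, Acat2, Dhcr7 and Insig2, both were above DMSO, which held for 40.5% of all genes. The remaining 9 had DMSO between the TUDCA libraries, so 17 of 26 (65.4%) had it outside the pair, against 70.9% of all genes tested. The 18 enzymes alone had a median of -0.09, with 9 below DMSO in both libraries and 2 above. Both comparisons used the same DMSO library, so a low or high value in it moves both differences together, and no test was made on these counts.

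By the limma intervals, a 2-fold change in either direction lay outside the 95% interval for 25 of the 26 genes, all but Insig2. With limma voom on reads this held for 24, the exception besides Insig2 being Idi1. Among all genes tested, 9695 of 11300 had such an interval, so most genes were bounded in this way. These bounds assume that DMSO varies like the TUDCA pair. The rule of size, a log2 difference of at least 1 in both TUDCA libraries, was met by Insig2 with 1.01 and 1.02, just over the limit, and by 0.77% of all genes on the higher side.

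**Figure D4:**
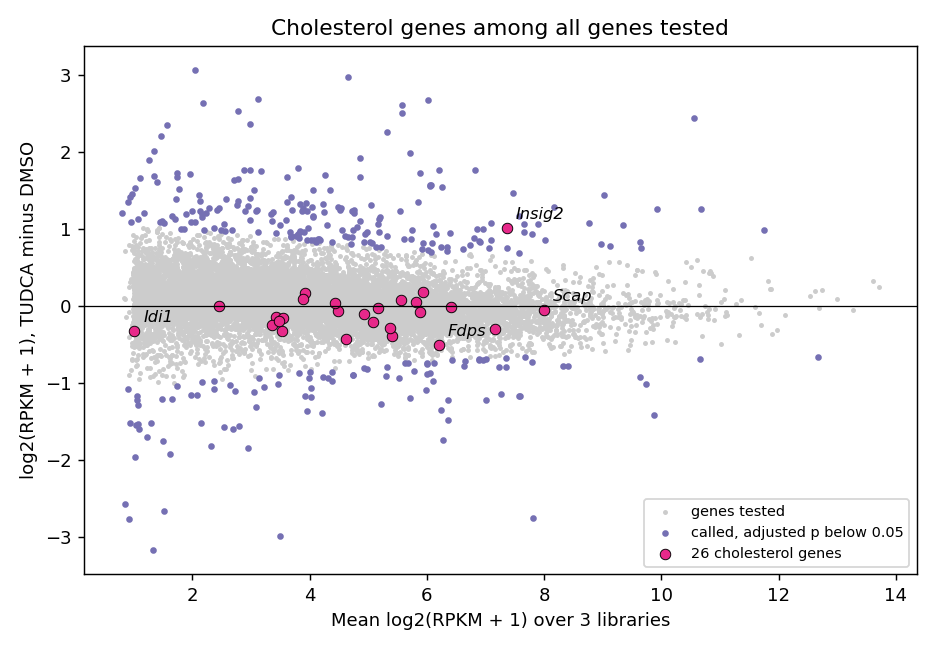
Log2 difference between TUDCA and DMSO against mean level for 11300 genes tested (grey), with the 299 called genes in violet and the 26 cholesterol genes as ringed circles. Insig2 lies among the called genes at 1.01, while the other 25 lie within the grey band between -0.51 and 0.18.

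In order of RPKM in DMSO, Scap (260.4), Scarb1 (164.3) and Insig2 (102.3) led, followed by Fdps, Npc2, Npc1 and Dhcr7. Ggps1 and Idi1 closed the order with 4.51 and 1.34 RPKM. With the longest transcript as the length, Npc2 came first at 83.8 RPKM, then Scarb1 at 71.6, Scap at 51.0 and Fdps at 38.6 RPKM, and Insig2 went from place 3 to place 8 at 30.0 RPKM. Orders of genes by level therefore depend on the length used. For the members, the longest transcript was 1.01 to 5.11 times the smallest recovered length, and the order by longest transcript rests on the smallest reads.

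The genes around the pathway were listed by role, and of every gene named from these lists as called, the call was lost at 0.3 RPKM and without a filter. Of the accessory genes of synthesis, 11 were listed, 9 were tested, and Acat3 was called higher. Acat3, a close paralog of Acat2, was at 25.2 RPKM in DMSO and reached 53.9 and 42.7 RPKM in TUDCA replicates 1 and 2, an estimate of 0.90 ± 0.23 (limma adjusted p = 0.00591). Reads of paralogs this close may be split between them, so their separate values are uncertain. Cyb5a, the cytochrome b5 that passes electrons to sterol oxidases, was at 249.0 RPKM in DMSO and 362.1 ± 11.4 RPKM with TUDCA, above DMSO in both libraries but not called (limma adjusted p = 0.154). Ebpl, an Ebp-like protein, was at 16.0 and 19.7 ± 0.6 RPKM (limma adjusted p = 0.807).

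Acly and Aacs, of the genes that supply cytosolic acetyl-CoA and acetoacetyl-CoA, lay below DMSO in both TUDCA libraries without a call. Acly, which makes cytosolic acetyl-CoA from citrate, was at 112.1 RPKM in DMSO and 83.99 ± 0.49 RPKM with TUDCA (limma adjusted p = 0.473), and Aacs, acetoacetyl-CoA synthetase, was at 51.4 and 41.6 ± 2.9 RPKM (limma adjusted p = 0.753).

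Of 15 genes that process SREBP or turn over sterol-regulated ER proteins, Ube2g2 was called lower. Ube2g2, the ubiquitin-conjugating enzyme that serves ER-associated degradation of sterol enzymes and INSIG proteins, fell from 213.9 RPKM in DMSO to 123.9 ± 11.9 RPKM with TUDCA, an estimate of -0.79 ± 0.21 (limma adjusted p = 0.00806). This call was lost in limma without the variance trend (adjusted p = 0.130). Spring1, which supports SREBP cleavage, was at 9.20 RPKM in DMSO and at 6.24 ± 0.07 RPKM with TUDCA, without a call (limma adjusted p = 0.584). Among 17 genes of the isoprenoid branches none was called. Both TUDCA libraries were below DMSO for 4 of them and above it for 7, against 30.4% and 40.5% of all genes tested. Nus1, a subunit of the dolichol synthase, was at 61.8 RPKM in DMSO and 44.4 ± 5.3 RPKM with TUDCA (limma adjusted p = 0.399), and Trit1, which modifies tRNA with an isoprenoid, was at 11.9 and 15.5 ± 1.3 RPKM (limma adjusted p = 0.743).

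The libraries held hepatocyte transcripts at high level, with 8 markers that included Alb summing to 10610 RPKM in DMSO against 13820 and 12100 RPKM with TUDCA. Of these, Fgb and Hnf4a were called higher with TUDCA. Macrophage markers (7 genes) summed to 211.8 to 230.1 RPKM, most of it from Cd68 (170.4 RPKM in DMSO). Those of endothelial cells, stellate cells and lymphocytes summed to at most 6.35 RPKM in any library. Biliary markers summed to 419.2 RPKM in DMSO against 803.8 and 627.4 RPKM with TUDCA, most of it from Spp1, which was called higher. Of 6 keratinocyte markers, Krt14 and Krt1 were listed at 0 in all libraries and Krt5 and Lor were called lower, the summed level being 39.2 RPKM in DMSO against 20.3 and 20.4 RPKM with TUDCA. The part of these shifts in the Insig2 result was not tested.

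Some members share exons with other genes in GENCODE M21, and no source used here says whether reads were counted by strand, so reads of overlapping genes on opposite strands cannot be separated. Fdft1 shares 18.3% of its exon length with Ctsb on the opposite strand, Scap 13.2% with a transcript on the opposite strand, and Fdps 26.7% with Gm43738 on its own strand. Insig2 and Insig1 share exon bases with no other annotated gene.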

How the data were processed

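RNA was sequenced from mouse hepatocytes, 1 DMSO and 2 TUDCA libraries, after poly(A) capture and random priming, per the labels' protocols. The authors deposited RPKM values per library. Per the submitters' processing notes, CASAVA, TopHat2 2.0.7, Bowtie2 and HTSeq were used, without stated roles; no source used here gives the build, the annotation or the counting options. Symbols came from GENCODE M21, and 32897 of 37620 identifiers had one.

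Whole reads were recovered from the RPKM values: all 19146 genes above 0 gave them within 1e-06 reads, at totals of 10774289 (DMSO), 9757547 and 10575699 (TUDCA). The smallest such numbers are used, and a multiple is possible.

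Genes averaging 1 RPKM or more were fitted as log2(RPKM + 1) with limma 3.58.1 (lmFit, eBayes with trend) in R 4.3.3, TUDCA against DMSO, with Benjamini-Hochberg adjustment over 11300 genes and a threshold of 0.05. The pseudocount understates changes of low genes. A permutation of 3 libraries cannot reach the threshold. Alternatives were other pseudocount, filters, scalings and variance models, limma voom on the reads, and each TUDCA library left out; a correction for GC content and gene length was added after seeing the data.

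Named were all members and, of 7 further lists, each called gene and up to 2 others of largest difference. Not every gene named by the rule is given in the text. Members and lists were chosen with earlier results of these data known. Promoters came from the RefSeq table (GRCm38.p6).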

Additional observations from a re-analysis of the deposited data

How the results depend on the processing

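The log2 fold change of Insig2 lay between 0.94 and 1.08 under 11 alternatives, and its call held under 9 of them. The call ended with genes from 0.3 RPKM upwards and without a filter, where limma estimated 6.34 and 1.11 prior degrees of freedom in place of infinite ones. Members called higher then numbered 0 in place of 1. All genes called higher and lower numbered 12 and 14 at 0.3 RPKM, 0 and 0 without a filter (1696 of 19146 genes had an unadjusted p below 0.05), and 323 and 244 after the GC and length correction, against 200 and 99. No member was called lower under any setting tested. Sqle, Fdps and Msmo1 came nearest, after the GC and length correction, at -0.51, -0.52 and -0.48. Their limma adjusted p-values there were 0.0797, 0.0849 and 0.0868, short of the threshold. Of 284 estimates for members with all 3 libraries, 11 changed sign, none of them called. With quantile normalization these were Ggps1 (-0.14), Nsdhl (-0.0068), Scap (0.045) and Npc2 (0.067). With median centring they were Ggps1 (-0.074), Nsdhl (-0.034) and Ebp (-0.022). After the GC and length correction they were Pmvk (0.0086), Ggps1 (-0.13), Nsdhl (-0.039) and Scap (0.032). The cause was not tested. The members' median ranged from -0.17 to -0.09 over the alternatives, and from -0.14 to -0.02 when 1 TUDCA library was left out, which leaves 1 library against 1 and no test. Setting each TUDCA library alone against DMSO gave opposite signs for 9 members, those with DMSO between the libraries. With 1 TUDCA library left out, 123 to 215 genes were at least 2-fold higher and 65 to 69 lower, in place of 87 and 32 in both, and among members 1 was higher and 0 lower. No paired analysis was possible because DMSO has 1 library and the labels give it no number.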

Other observations

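Among 13 genes of the oxysterol receptors LXR and their targets, 11 were tested, Abca1 was called higher and none lower. Abca1, which exports cholesterol to apolipoproteins, was at 9.43 RPKM in DMSO, 22.7 RPKM in TUDCA replicate 1 and 13.96 RPKM in TUDCA replicate 2. Both TUDCA libraries were above DMSO, and the estimate of 0.85 ± 0.26 (limma adjusted p = 0.0460) was just past the threshold. With quantile normalization, median centring and no variance trend limma did not call it (adjusted p = 0.164, 0.0982 and 0.0745). Abcg5 and Abcg8, which pair as the canalicular sterol exporter, were at 0.981 and 1.77 RPKM in DMSO. Abcg5 was at 1.90 and 4.00 RPKM with TUDCA (limma adjusted p = 0.0828) on 8, 14 and 32 reads, and Abcg8 was at 3.10 and 3.74 RPKM (limma adjusted p = 0.360). The median log2 fold change of the 11 genes was 0.25, and 6 of them had both TUDCA libraries above DMSO, as did 40.5% of all genes tested.

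Of 19 genes of sterol transport and lipoprotein uptake, 16 were tested and Cd36 was called higher. Cd36, a scavenger receptor for lipids, was at 1.20 RPKM in DMSO and 3.85 and 3.01 RPKM in TUDCA replicates 1 and 2 (estimate 1.00 ± 0.31, limma adjusted p = 0.0459), and the call ended on the TPM scale, with quantile normalization and with median centring (limma adjusted p = 0.0595, 0.104 and 0.0518). Lrp1, the remnant receptor, was at 133.0 RPKM in DMSO and 199.0 ± 25.3 RPKM with TUDCA (limma adjusted p = 0.127). Tmem97, a sterol-regulated partner of Npc1, was at 104.7 RPKM in DMSO and 71.3 ± 0.7 RPKM with TUDCA, below DMSO in both libraries but not called (limma adjusted p = 0.201). Of 5 genes of cholesterol esterification and ester hydrolysis, 4 were tested and none was called. Lipa, the lysosomal acid lipase, was at 56.3 and 69.2 ± 11.6 RPKM, and Soat2, the esterifying enzyme of hepatocytes, at 24.2 and 20.4 ± 2.6 RPKM.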
